A study of Homo sapiens with 51 samples.

Results

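The genes of 10 adhesion molecules with immunoglobulin-like domains were followed through the experiment, out of 25421 gene symbols in the count table. They were ALCAM, MCAM and BCAM; the neural-type molecules L1CAM and NCAM1; the junctional adhesion molecules F11R and JAM3; the nectins NECTIN1 and NECTIN4; and ICAM1. The set was built around ALCAM because ALCAM counts were lower with OVOL2 than with mCherry, most in the line PK45H. The ALCAM values of the OVOL2 comparisons are therefore given as a description without a test, while ALCAM in the other comparisons, and the other 9 genes in every comparison, were tested among all genes.

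The counts came from 51 libraries of 5 human lines of pancreatic ductal adenocarcinoma (PDA), the common cancer of the pancreatic ducts. KP4, PANC1 and PK45H each had 5 groups of 3 libraries: untreated cells, cells given a lentivirus for mCherry, cells given a lentivirus for OVOL2, and the same 2 viruses each combined with a virus for M2rtTA. OVOL2 is a zinc-finger transcription factor that represses genes of the mesenchymal state, mCherry is a fluorescent protein used as the negative control, and M2rtTA is the transactivator that drives tetracycline-inducible promoters when doxycycline is present. Per the labels, virus was added at a multiplicity of infection of 2 with 8 µg/ml polybrene, and puromycin (2.5 µg/ml) and doxycycline (0.6 µg/ml) were added the day after. HPAFII and PATU8988S had 3 untreated libraries each and received no virus, which gives 17 groups in all. RNA was taken after 6 days, and 100 ng of it entered PLATE-seq, a method that tags the 3′ ends of transcripts well by well and pools the wells.

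Adhesion molecules of the immunoglobulin superfamily bind partners on the neighbouring cell or in the matrix through their extracellular domains and connect to the cell cortex through short cytoplasmic tails. Nectins and junctional adhesion molecules help to place adherens and tight junctions in epithelia. ALCAM (CD166) binds itself and the T cell receptor CD6, and its extracellular part can be released by ADAM-type proteases. In PDA, several of these molecules are studied as surface markers, among them L1CAM and ALCAM.

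In the GRCh38 build with the GENCODE 29 annotation, ALCAM lies on chromosome 3 from 105366909 to 105576900 on the plus strand. Of the other 9 genes, NCAM1 (112961247 to 113278436, plus), MCAM (119308529 to 119321521, minus), NECTIN1 (119623408 to 119729084, minus) and JAM3 (134068925 to 134152001, plus) lie on chromosome 11. F11R (160995211 to 161021348, minus) and NECTIN4 (161070995 to 161089599, minus) are near each other on chromosome 1. ICAM1 (10270835 to 10286615, plus) and BCAM (44809059 to 44821421, plus) lie on chromosome 19, and L1CAM on X from 153861514 to 153886174 on the minus strand. All 10 are protein-coding genes. The exons of JAM3 share 465 bases with those of NCAPD3 and the exons of MCAM share 509 bases with those of CBL, in both cases on the opposite strand. F11R shares 1853 exon bases with a same-strand read-through model, AL591806.3, that is not a row of the table. Whether counting used the strand is not given in the sources used here, so reads in those shared stretches cannot be assigned with certainty.

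The stretch before the ALCAM start site is shown because ALCAM is the gene the set was built on. It is the 250 bases upstream of the start, chr3:105366659-105366908 on the plus strand (RefSeq, GRCh38.p14), and the capitals mark the E-box CACCTG.
ALCAM: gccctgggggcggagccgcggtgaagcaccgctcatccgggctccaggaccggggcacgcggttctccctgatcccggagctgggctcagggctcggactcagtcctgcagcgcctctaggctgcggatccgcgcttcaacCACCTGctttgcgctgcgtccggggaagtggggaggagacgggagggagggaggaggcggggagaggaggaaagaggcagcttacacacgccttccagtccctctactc
Both strands were searched for 2 motifs in RefSeq windows of 250 bases before to 50 after a start site. One was CCGTTA, the core of sites of OVO-type zinc fingers, and the other was CAGGTG, which reads as CACCTG on the opposite strand, the E-box bound by ZEB and SNAI repressors. Windows were found for 6 of the 10 genes: ALCAM, L1CAM, MCAM, BCAM, ICAM1 and NECTIN4. CCGTTA was in none of their windows and in 3.07% of all 35116 windows. The E-box was in the windows of ALCAM, MCAM, ICAM1 and NECTIN4, or 4 of 6 genes, where 24.1% of all 27305 genes had it in at least 1 window and 20.6% of all windows held it. Its 4 matches follow with 12 bases on either side, each read on the strand of its gene. They start at positions −109, −235, −44 and −38 from the start site, and lie at chr3:105366788-105366817 (plus strand), chr11:119317348-119317377 (minus), chr19:10271064-10271093 (plus) and chr1:161089579-161089608 (minus) in that order.
ALCAM: ccgcgcttcaacCACCTGctttgcgctgcg
MCAM: cagaccccgagaCACCTGtcactaccccct
ICAM1: ccccttggccccCAGGTGgctagcgctata
NECTIN4: cccccagagacgCACCTGttctgacctgct
These matches describe the letters only. Of the 4 genes, MCAM, ICAM1 and NECTIN4 passed the test in no OVOL2 comparison.

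Library totals ran from 1165399 to 7490556 counts, and 15653 to 18817 genes had a count in each. The lowest total belonged to HPAFII replicate 2, which also had the lowest mean correlation with its replicates (0.871), so the tests among untreated lines are given with and without it. All 5 ductal epithelial markers (KRT7, KRT8, KRT18, KRT19 and EPCAM) had means above 10 CPM (counts scaled to 1e6 per library), and their sum ran from 608 to 14336 CPM. The summed endothelial list stayed between 4.36 and 17.2 CPM and the summed acinar list between 0 and 7.73 CPM, while the fibroblast list summed to 8.53 to 66.5 CPM and the immune list to 1.49 to 43.4 CPM. The list of endocrine and neural genes (INS, GCG, CHGA, SYP and TUBB3) was higher, at 50.5 to 642 CPM. Its highest sums were in KP4 (357 to 642 CPM), and their part in the results was not tested. The highest immune sums, 22.7 to 43.4 CPM, were in HPAFII; its part in the results on that line was not tested. OVOL2 counts did not differ from mCherry without M2rtTA (mean log2 fold change over the 3 lines of −0.09, SE 0.46, adjusted p = 0.925) and rose by 2.15 (SE 0.44, adjusted p = 0.00021) with it. By line, the change with M2rtTA was 3.08 in KP4 (adjusted p = 0.0272), 1.40 in PANC1 (0.244) and 1.98 in PK45H (0.0135). OVOL2 stayed low in these groups, with means of 4.98, 2.15 and 4.52 CPM and a range of 2.18 to 10.5 CPM in KP4. The labels do not say whether the viral transcript ends in the 3′ end of OVOL2, so a 3′-end count need not include it. CDH1, the epithelial cadherin, rose by 2.49 and 2.52 in the 2 arms, and ZEB1, a mesenchymal repressor, fell by 2.64 and 1.95. Levels are in CPM after TMM scaling, per library or as mean ± SD (n = 3). Whether ranges of 3 libraries overlap is a description, and the share of all genes without overlap was not computed. A change is a log2 fold change, SE is its standard error, and every adjusted p comes from the two-sided quasi-likelihood test of edgeR over all genes. The labels speak of triplicate transductions and not of separate cultures beyond that, so the p-values measure only the spread between these libraries.

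ALCAM counts stood lower with OVOL2 than with mCherry in all 3 lines and both arms. The OVOL2 groups, but not all mCherry groups, also had lower means with M2rtTA than without it. In PK45H, ALCAM measured 218, 201 and 209 CPM with mCherry and 111, 112 and 113 CPM with OVOL2. With M2rtTA the mCherry libraries were at 211, 219.5 and 214 CPM and the OVOL2 libraries at 32.8, 32.6 and 32.7 CPM. The groups were far apart in both arms, and the OVOL2 libraries of each arm lay within 2 CPM of each other. These OVOL2 libraries held 471 to 668 ALCAM counts without M2rtTA and 126 to 162 with it. Their closeness is therefore not a measure of precision. The log2 fold changes were −0.93 (SE 0.11) and −2.71 (SE 0.12), and these are the values the set was chosen on. In bulk libraries, fewer cells that express a gene and less RNA per cell cannot be told apart.

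KP4 and PANC1 started from lower ALCAM levels. In KP4 the mCherry libraries were at 50.6, 44.8 and 47.9 CPM and the OVOL2 libraries at 23.1, 19.8 and 25.7 CPM. With M2rtTA they were at 46.8, 48.5 and 37.7 CPM against 15.9, 10.6 and 10.5 CPM. No OVOL2 library of KP4 reached the lowest mCherry library of its arm, and the changes were −1.06 (SE 0.17) and −1.83 (SE 0.18). In PANC1 the mCherry libraries were at 21.6, 35.8 and 41.1 CPM and the OVOL2 libraries at 17.7, 26.0 and 16.7 CPM, so these ranges overlapped. With M2rtTA they were at 40.0, 36.6 and 51.1 CPM against 13.4, 13.5 and 12.2 CPM, without overlap. The PANC1 changes were −0.69 (SE 0.23) and −1.67 (SE 0.23); the latter was −1.03 after all libraries were thinned to the lowest total. Over the 3 lines, the mean ALCAM change was −0.87 (SE 0.10) without M2rtTA and −2.07 (SE 0.10) with it. The difference between the arms was −0.77 in KP4, −0.98 in PANC1 and −1.78 in PK45H. After thinning, in a single random draw, it was −0.54 in KP4, −0.30 in PANC1 and −1.75 in PK45H. The PANC1 libraries with OVOL2 and M2rtTA held 52 to 94 ALCAM counts before thinning. Whether the PANC1 shift came from depth or from the draw was not tested.

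**Figure D1:**
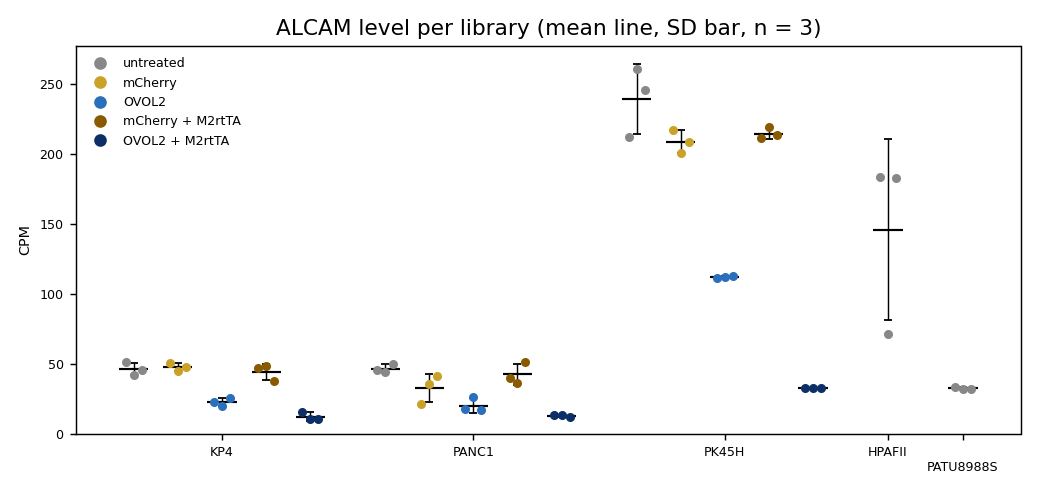
ALCAM level in CPM (vertical axis, linear from 0) in each of the 51 libraries, by cell line and treatment (colour); points are libraries, the long line is the group mean and the bar the SD of 3 libraries. The OVOL2 libraries with M2rtTA lie at 32.6 to 32.8 CPM in PK45H, against 211 to 219.5 CPM with mCherry and M2rtTA.

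Within lines, ALCAM passed in no comparison among the control viruses and untreated cells. mCherry against untreated cells gave 0.05 (SE 0.17, adjusted p = 0.992) in KP4, −0.49 (SE 0.22, adjusted p = 0.470) in PANC1 and −0.18 (SE 0.11, adjusted p = 0.741) in PK45H. M2rtTA with mCherry against mCherry alone gave −0.10 (SE 0.17, adjusted p = 0.966), 0.36 (SE 0.22, adjusted p = 0.889) and 0.03 (SE 0.11, adjusted p = 0.956) in the same order. None of these 6 changes passed the threshold. Their mCherry libraries also entered the OVOL2 comparisons on which ALCAM was chosen. These tests are therefore not independent of that choice and lend it no support. The untreated lines differed in ALCAM (adjusted p = 8.05e-07, and 1.25e-09 without HPAFII replicate 2). PK45H was at 212, 261 and 246 CPM, HPAFII at 184, 71.1 and 183 CPM, KP4 at 51.3, 42.3 and 45.5 CPM, PANC1 at 45.7, 44.2 and 49.98 CPM and PATU8988S at 33.4, 32.2 and 32.3 CPM. In that order, PK45H and HPAFII were separate from each other and from the rest, KP4 and PANC1 overlapped, and PATU8988S was below both.

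Across all 17 groups, the ALCAM means, in order, fell into 5 blocks, and groups next to each other across a block border did not overlap. The highest held the 3 PK45H groups without OVOL2 (209 to 239.8 CPM), followed by HPAFII (146 ± 64.9 CPM) together with PK45H with OVOL2 (112 ± 0.845 CPM). These overlapped only through HPAFII replicate 2, at 71.1 CPM. The next held the KP4 and PANC1 groups without OVOL2, PATU8988S, and PK45H with OVOL2 and M2rtTA (32.6 to 47.8 CPM). Below them were KP4 and PANC1 with OVOL2 (22.8 ± 2.95 and 20.2 ± 5.13 CPM), and last the same lines with OVOL2 and M2rtTA (12.4 ± 3.10 and 13.0 ± 0.712 CPM). Neighbours within a block overlapped in this order, and the PANC1 mCherry and OVOL2 libraries overlapped although their means fell into different blocks.

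The genes whose group means followed ALCAM most closely were named as a description, by Pearson's r of log2 CPM over the 17 groups among 7946 genes with a mean of at least 10 CPM. They were NAMPT (r = 0.94), which makes a precursor of NAD; MARCKS (0.91), a membrane-bound actin regulator; CKAP4 (0.91), a protein of the endoplasmic reticulum; CORO1C (0.90), an actin-binding coronin; and ZHX3 (0.90), a homeobox repressor. Among the lowest values were those of USF3 (−0.90) and MRPL53 (−0.89), a mitochondrial ribosomal protein. Among the other 9 adhesion genes, r ran from −0.50 for BCAM to 0.56 for NECTIN1. The 17 points share cell lines, so level differences between lines enter r.

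The other 9 genes did not move as a set. Without M2rtTA, 1 gene rose and 2 fell among the 8 tested in KP4 (6.84% of all genes tested passed the threshold in that comparison), 1 rose and 1 fell in PANC1 (5.08% of all genes), and 1 rose and 1 fell in PK45H (8.39%). With M2rtTA, 2 rose and 1 fell in KP4 (22.4% of all genes), 1 rose and 2 fell in PANC1 (13.9%), and 1 rose and 1 fell in PK45H (15.9%). ICAM1 was too low to be tested in KP4, and NECTIN4 in PANC1 and PK45H. In the mean over the 3 lines all 9 were tested: 2 rose and 2 fell without M2rtTA (18.1% of all genes), and 3 rose and 2 fell with it (32.9%). Their median change with M2rtTA was −0.05, against 0.03 over all 14943 genes tested, and without it 0.10 against 0.00072. F11R was the gene that rose in all 6 comparisons, and NECTIN1 fell in 5 of them.

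F11R, the junctional adhesion molecule JAM-A of epithelial tight junctions, rose with OVOL2 in every line and arm. In KP4 it measured 33.5, 31.4 and 20.0 CPM with mCherry and 70.7, 76.9 and 68.6 CPM with OVOL2. In PANC1 the values were 41.6, 36.2 and 34.3 CPM against 83.8, 80.7 and 88.3 CPM, and in PK45H 43.9, 41.1 and 41.8 CPM against 108, 115 and 119 CPM. The lowest OVOL2 library was above the highest mCherry library in all 3 lines. The changes were 1.35 (SE 0.17, adjusted p = 0.000402), 1.18 (SE 0.14, adjusted p = 0.000179) and 1.40 (SE 0.16, adjusted p = 7.38e-05). With M2rtTA, the OVOL2 libraries were at 46.6 to 60.7 CPM in KP4, 75.1 to 87.2 CPM in PANC1 and 91.6 to 121 CPM in PK45H, and the mCherry libraries at 24.8 to 28.0, 33.6 to 41.8 and 40.8 to 53.7 CPM. Again no ranges overlapped, and the changes were 0.99 (SE 0.17, adjusted p = 0.00107), 1.11 (SE 0.14, adjusted p = 8.82e-05) and 1.13 (SE 0.15, adjusted p = 0.000268). The mean over lines was 1.33 (SE 0.09, adjusted p = 9.73e-14) without M2rtTA and 1.08 (SE 0.09, adjusted p = 5.63e-12) with it. The test of a difference between lines did not pass in either arm (adjusted p = 0.820 and 0.893).

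JAM3, the junctional adhesion molecule JAM-C, moved the other way from F11R. In KP4 it fell from 15.3, 12.1 and 13.1 CPM with mCherry to 3.36, 4.76 and 3.76 CPM with OVOL2 (−1.77, SE 0.21, adjusted p = 0.000267). In PANC1 it fell from 15.1, 13.4 and 16.5 CPM to 1.61, 5.53 and 4.23 CPM (−1.94, SE 0.35, adjusted p = 0.00537). PK45H had little JAM3 to begin with, at 4.91, 4.65 and 2.76 CPM with mCherry and 0.708, 3.19 and 2.49 CPM with OVOL2, and there the ranges overlapped (−0.92, SE 0.56, adjusted p = 0.350). With M2rtTA, JAM3 fell in PANC1 from 12.4, 13.0 and 16.6 CPM to 6.58, 2.72 and 4.46 CPM (−1.62, SE 0.34, adjusted p = 0.00608; −1.23, adjusted p = 0.0926, after thinning). In KP4 with M2rtTA it was at 12.6, 13.0 and 14.8 CPM against 8.72, 9.95 and 10.2 CPM. That change of −0.48 missed the threshold (SE 0.20, adjusted p = 0.105). In PK45H with M2rtTA the change was −0.25 (SE 0.55, adjusted p = 0.811). The mean over lines was −1.52 (SE 0.22, adjusted p = 4.25e-06) and −0.79 (SE 0.22, adjusted p = 0.00429) in the 2 arms; after thinning, the latter was −0.44 (adjusted p = 0.328). NCAPD3, which shares exon bases with JAM3 on the opposite strand, fell by 0.49 (adjusted p = 0.00328) and 0.46 (adjusted p = 0.00304) in the same means; its part in the JAM3 counts was not tested.

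NECTIN1, a junction-organising nectin and a known entry receptor of herpes simplex virus, fell with OVOL2 in 5 of 6 comparisons, all at low counts. In KP4 it was at 6.12, 5.96 and 9.90 CPM with mCherry and 4.12, 3.42 and 1.41 CPM with OVOL2. With M2rtTA it was at 7.85, 6.64 and 6.41 CPM against 1.34, 2.02 and 1.28 CPM. The ranges were separate in both arms, with changes of −1.28 (SE 0.35, adjusted p = 0.0407) and −2.13 (SE 0.38, adjusted p = 0.0013). The first call was lost when any 1 of the 6 libraries other than OVOL2 replicate 1 was left out (adjusted p of 0.0613 to 0.163), with no filter on low counts (0.0610) and in a fit of only the 2 groups (0.136). In PK45H, NECTIN1 was at 6.63, 9.30 and 5.51 CPM with mCherry and 4.01, 1.51 and 1.04 CPM with OVOL2, a change of −1.75 (SE 0.49, adjusted p = 0.0421). With M2rtTA it was at 3.99, 5.37 and 7.98 CPM against 1.82, 0.518 and 2.60 CPM, a change of −1.77 (SE 0.50, adjusted p = 0.0288). The PK45H groups did not overlap in either arm. Without M2rtTA the PK45H call was lost when any library other than OVOL2 replicate 1 was left out (adjusted p of 0.0511 to 0.144), and with M2rtTA when mCherry replicate 2 or 3 or OVOL2 replicate 1 or 2 was (0.0549 to 0.110). Both PK45H calls were also lost after thinning (0.0515 and 0.0521) and in a fit of only the groups compared (0.0958 and 0.0649).

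NECTIN1 was low in PANC1 from the start. Without M2rtTA the PANC1 libraries were at 2.93, 2.52 and 1.47 CPM with mCherry and 2.15, 2.31 and 2.21 CPM with OVOL2, the latter lying within the range of the former (−0.04, SE 0.53, adjusted p = 0.983). With M2rtTA the mCherry libraries held 9, 17 and 7 counts and the OVOL2 libraries 3, 1 and 0 counts, all at or under a floor of 3 counts. The fitted change of −2.94 (SE 0.71, adjusted p = 0.0135) therefore depends on very few reads, and the call was lost without mCherry replicate 2 (adjusted p = 0.0606), OVOL2 replicate 2 (0.0773) or OVOL2 replicate 3 (0.0503) of that arm. The difference between the arms in PANC1 was −2.90 (SE 0.90, adjusted p = 0.249). The mean over lines was −1.001 (SE 0.26, adjusted p = 0.0058) without M2rtTA and −2.29 (SE 0.31, adjusted p = 3.96e-07) with it. NECTIN4, a nectin and the target of an antibody-drug conjugate, stayed at 0.168 to 2.93 CPM in all 45 libraries of the 3 transduced lines, and its mean changes were 0.44 (SE 0.39, adjusted p = 0.483) and 0.17 (SE 0.34, adjusted p = 0.750).

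**Figure D2:**
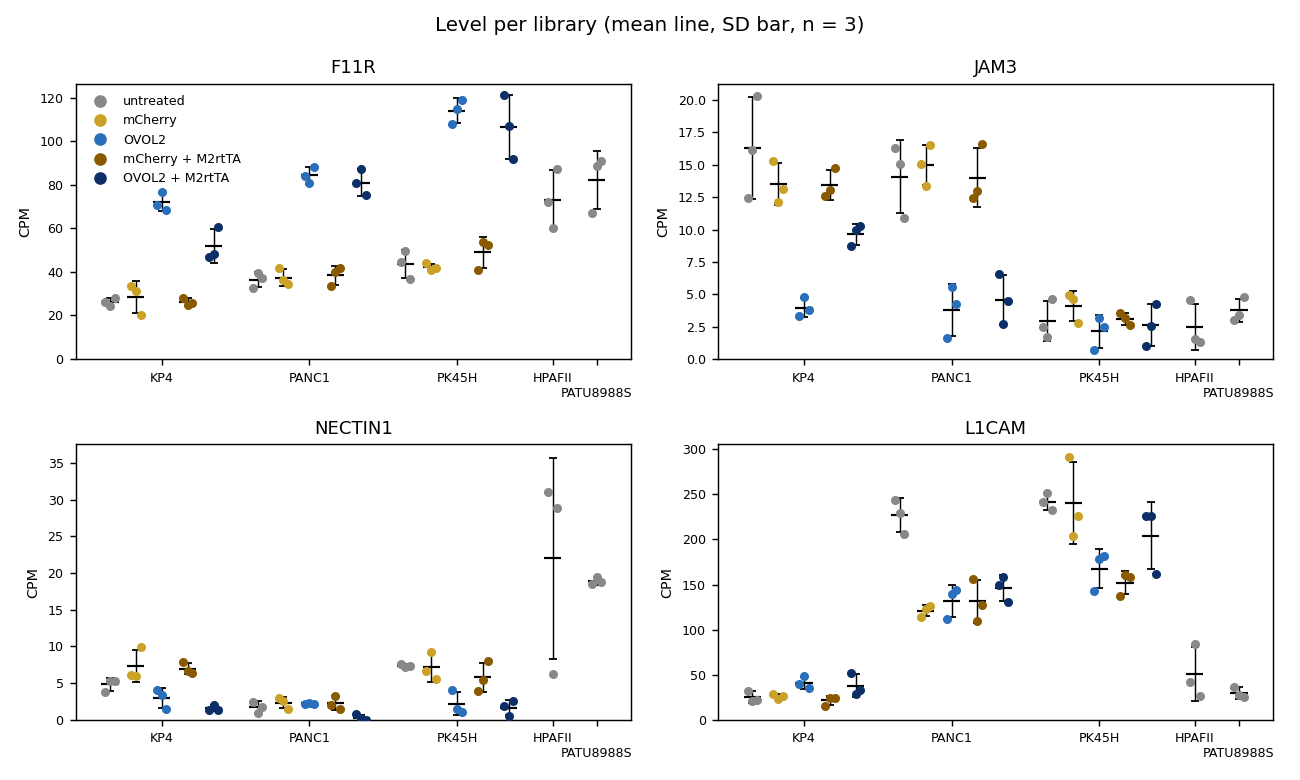
Levels in CPM (vertical axes, linear from 0) of F11R, JAM3, NECTIN1 and L1CAM in each of the 51 libraries, by cell line and treatment (colour as given in the first panel); points are libraries, the long line is the mean and the bar the SD of 3. F11R lies higher and JAM3 lower in the OVOL2 libraries of KP4 and PANC1, and NECTIN1 reaches 18.5 to 31.0 CPM in 5 of the 6 libraries of HPAFII and PATU8988S.

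L1CAM, a neural adhesion molecule that binds ankyrin through its tail, was abundant in PANC1 and PK45H and rose on average with M2rtTA (0.48, SE 0.11, adjusted p = 0.0012), though not without it (0.10, SE 0.11, adjusted p = 0.624). In KP4 with M2rtTA it was at 15.7, 24.5 and 24.5 CPM with mCherry and 52.3, 28.7 and 32.8 CPM with OVOL2. The ranges were separate and the change was 0.82 (SE 0.26, adjusted p = 0.033). That call was lost without mCherry replicate 1 (0.65, adjusted p = 0.118), mCherry replicate 2 (0.90, adjusted p = 0.0549) or OVOL2 replicate 1 (0.51, adjusted p = 0.171) of the M2rtTA arm, and in a fit of only the 2 groups (0.83, adjusted p = 0.0806). In PANC1 the OVOL2 libraries were at 112 to 143 CPM without and 131 to 159 CPM with M2rtTA, within or near the range of the mCherry libraries at 114 to 126 and 109.7 to 156 CPM. The PANC1 changes were 0.14 (adjusted p = 0.699) and 0.19 (adjusted p = 0.460). PK45H showed opposite signs in the 2 arms, with 292, 204 and 226 CPM against 143, 178 and 182 CPM without M2rtTA (−0.55, SE 0.17, adjusted p = 0.0550) and 137, 160.3 and 158 CPM against 226, 226 and 161 CPM with it (0.43, SE 0.17, adjusted p = 0.0939). Neither passed the threshold. The L1CAM change without M2rtTA did pass with robust dispersion (adjusted p = 0.0349), with a filter at a mean count of 10 (0.0484) and in DESeq2 (0.0212), at −0.55 to −0.56.

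The L1CAM effect of OVOL2 without M2rtTA differed between the 3 lines (adjusted p = 0.0381), as did that of NCAM1 (adjusted p = 0.0472). These were 2 of the 9 genes, where 2.75% of all genes passed. With M2rtTA 0 of 9 passed in edgeR (7.56% of all genes), 0 in DESeq2, and 1 had an unadjusted p under 0.05. The L1CAM call was lost without KP4 mCherry replicate 2 or 3, KP4 OVOL2 replicate 2, PANC1 OVOL2 replicate 2, PK45H mCherry replicate 1 or 3, or any PK45H OVOL2 library (adjusted p of 0.0523 to 0.137). The change of the OVOL2 effect by M2rtTA was tested within lines as well. It passed for 1 of 8 genes in KP4 (1.43% of all genes), JAM3, whose fall was smaller with M2rtTA (difference of 1.29, SE 0.29, adjusted p = 0.0464). Leaving out any 1 of the 12 libraries in that comparison ended the call (adjusted p of 0.0518 to 0.113). In PANC1 (0.136% of all genes) and PK45H (1.6%) it passed for 0 genes in edgeR, with an unadjusted p under 0.05 for 1 gene in each, NECTIN1 and L1CAM. The L1CAM difference in PK45H was 0.98 (SE 0.23, adjusted p = 0.0515), and it passed in DESeq2 (0.0045).

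NCAM1, the neural cell adhesion molecule, rested on single libraries. In KP4 with OVOL2 it held 297, 253 and 3778 counts, or 45.4, 48.1 and 592 CPM, against 26.1, 39.9 and 47.2 CPM with mCherry. Replicate 3 was far above both others, the ranges overlapped, and the change of 2.61 (SE 0.83, adjusted p = 0.0788) became 0.31 (adjusted p = 0.816) without that library. The difference between lines also ended without it (adjusted p = 0.618). In PANC1 with mCherry, replicate 1 held 622 counts against 208 and 100. The call of a difference between lines was lost as well without that library (adjusted p = 0.107), and without any library of the OVOL2 comparisons other than KP4 OVOL2 replicate 1 or 2 and PANC1 mCherry replicate 2 or 3 and PK45H mCherry replicate 2 (0.0593 to 0.140 for the others). Away from those libraries, NCAM1 lay between 15.6 and 57.6 CPM in all groups.

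MCAM and BCAM are close relatives of ALCAM in domain layout; MCAM (CD146) is best known from vessels and melanoma, and BCAM is a laminin receptor. MCAM did not pass in any OVOL2 comparison. Its libraries lay between 11.5 and 29.9 CPM in the 3 transduced lines after either virus, with the largest changes in PK45H (−0.61, SE 0.30, adjusted p = 0.243, and −0.58, SE 0.29, adjusted p = 0.203). In PK45H with M2rtTA the mCherry libraries were at 29.2, 29.1 and 29.9 CPM. The OVOL2 libraries were at 12.9, 17.6 and 28.2 CPM, a wide spread. BCAM was scarce, at 0.491 to 6.09 CPM in those libraries, and rose in the mean over lines by 0.99 (SE 0.31, adjusted p = 0.0225) without M2rtTA and 0.81 (SE 0.29, adjusted p = 0.0296) with it. No single line passed on its own (log2 fold changes of 0.40 to 1.15). In PK45H, mCherry replicate 2 stood at 5.43 CPM against 0.491 and 0.689 CPM in its replicates, and without it the PK45H change was 2.83 (adjusted p = 0.0018).

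The BCAM means depended on single libraries. Without M2rtTA the call was lost on leaving out KP4 mCherry replicate 1, KP4 OVOL2 replicate 2, PANC1 OVOL2 replicate 1, or PK45H mCherry replicate 1 or 3 (changes of 0.82 to 0.90, adjusted p of 0.0533 to 0.0629). With M2rtTA it was lost without KP4 mCherry replicate 3, KP4 OVOL2 replicate 3, PANC1 OVOL2 replicate 1 or 2, PK45H mCherry replicate 1 or PK45H OVOL2 replicate 1 of that arm (0.65 to 0.78, adjusted p of 0.0506 to 0.0946). ICAM1, a ligand of leukocyte integrins that inflammatory signals induce, was detectable mainly in PANC1. It was at 3.83, 6.23 and 4.59 CPM there with mCherry and 5.91, 3.69 and 1.61 CPM with OVOL2, and at 5.11, 2.91 and 4.36 CPM against 3.41, 2.58 and 4.93 CPM with M2rtTA. The ranges overlapped in both arms, and its mean changes over lines were 0.06 (SE 0.47, adjusted p = 0.958) and −0.05 (SE 0.47, adjusted p = 0.950). In KP4 and PK45H with either virus it had 0 to 20 counts per library, too few to show a change.

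**Figure D3:**
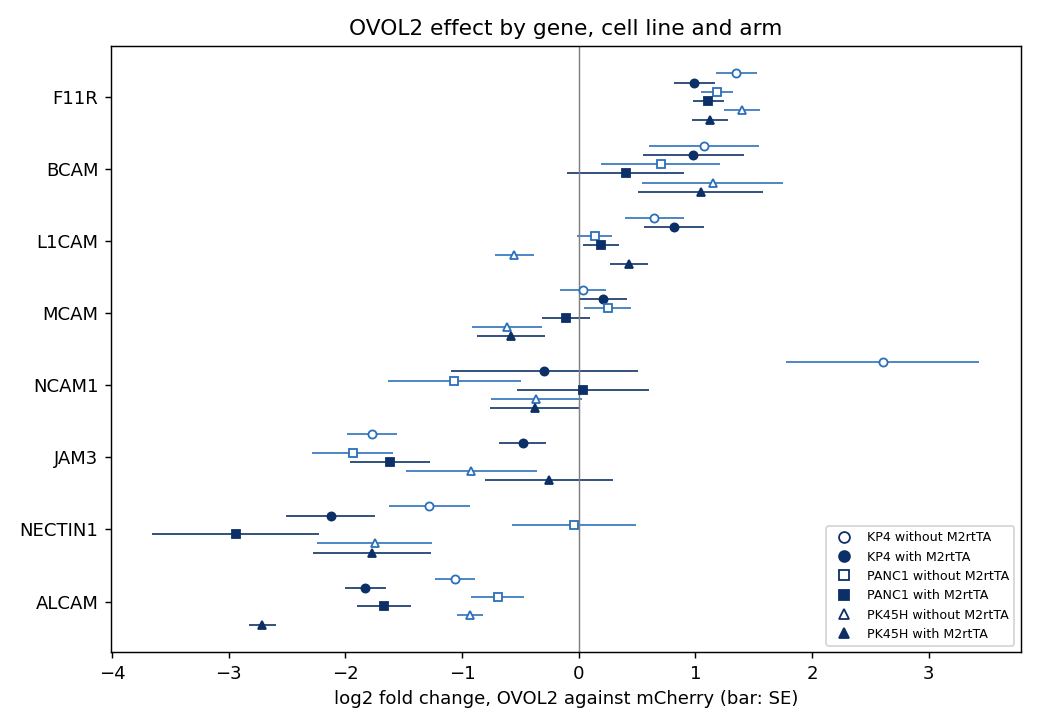
Log2 fold change of OVOL2 against mCherry (horizontal axis, bar is the SE) for 8 adhesion genes in KP4, PANC1 and PK45H (marker shape) without M2rtTA (open) and with it (filled). F11R lies between 0.99 and 1.40 and ALCAM between −0.69 and −2.71 in all 6 comparisons, while NCAM1 in KP4 at 2.61 rests on a single library.

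The control comparisons moved few of these genes. mCherry against untreated cells passed for 0 of the 9 genes tested in KP4 (0% of all genes), 1 of 9 in PANC1 (0.598%) and 0 of 9 in PK45H (0.00736%). The counts of 0 were the same in DESeq2, and 0 genes had an unadjusted p under 0.05 there. The gene in PANC1 was L1CAM, at 244, 229.6 and 207 CPM untreated and 114, 122 and 126 CPM with mCherry, without overlap (−0.89, SE 0.15, adjusted p = 0.0161). That call was lost without any 1 of the mCherry libraries or untreated replicate 1 or 2 (changes of −0.84 to −0.91, adjusted p of 0.0508 to 0.0898). The L1CAM libraries of PANC1 with OVOL2, at 112 to 143 CPM, were likewise below the untreated ones. M2rtTA added to mCherry passed for 0 of 9 genes in KP4 (0% of all genes), PANC1 (0%) and PK45H (0.0294%) in edgeR. At an unadjusted p under 0.05 the counts were 0, 0 and 1, and in DESeq2 0, 0 and 1. The 1 gene was L1CAM in PK45H, at −0.67 (SE 0.17, adjusted p = 0.269 in edgeR and 0.0286 in DESeq2).

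Among the untreated lines, 8 of the 10 genes differed between at least some lines, where 57.8% of all genes did, and 8 of 10 also without HPAFII replicate 2. The 2 others were NCAM1 (adjusted p = 0.423) and BCAM (adjusted p = 0.135). HPAFII and PATU8988S, the lines with more CDH1 (means of 76.3 and 108 CPM, against 4.98 to 7.25 CPM), were then set against the mean of KP4, PANC1 and PK45H. This passed for 5 of 10 genes, 3 higher and 2 lower, where 34.8% of all genes passed. F11R was higher by 1.18 (SE 0.12, adjusted p = 2.22e-06), at 60.2 to 90.8 CPM against 24.4 to 49.6 CPM in the 9 other libraries. NECTIN1 was higher by 2.41 (SE 0.25, adjusted p = 3.97e-06), at 31.0, 6.25 and 28.8 CPM in HPAFII and 18.5, 19.4 and 18.8 CPM in PATU8988S, against 0.912 to 7.58 CPM in the others. Only HPAFII replicate 2 reached into the range of those 3 lines. NECTIN4 was higher by 1.65 (SE 0.38, adjusted p = 0.00316), but this came from HPAFII at 9.05, 9.38 and 12.7 CPM, and the call was lost after thinning (1.72, adjusted p = 0.0999). PATU8988S, at 0.597 to 1.52 CPM, lay among the other lines.

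L1CAM was lower in HPAFII and PATU8988S by 1.51 on the log2 scale (−1.51, SE 0.22, adjusted p = 8.92e-05). HPAFII stood at 42.4, 84.4 and 25.9 CPM and PATU8988S at 36.7, 27.2 and 25.1 CPM, against 207 to 251 CPM in PANC1 and PK45H. KP4 was at 20.5 to 32.3 CPM, as low as PATU8988S, so the contrast does not describe all 3 lines. JAM3 was lower (−1.48, SE 0.29, adjusted p = 0.00112), at 1.35 to 4.78 CPM against 10.9 to 20.3 CPM in KP4 and PANC1, and PK45H at 1.68 to 4.62 CPM was in the lower range. ALCAM did not pass (−0.20, SE 0.17, adjusted p = 0.376). MCAM did not either (−0.38, SE 0.20, adjusted p = 0.163). Without HPAFII replicate 2 the changes were 1.23 for F11R, 2.59 for NECTIN1, 1.67 for NECTIN4, −1.80 for L1CAM, −1.42 for JAM3 and −0.05 for ALCAM, on the same side of the threshold each, while MCAM came to −0.67 and passed (adjusted p = 0.000961). In that library MCAM measured 46.1 CPM, against 18.8 and 16.4 CPM in its replicates.

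**Figure D4:**
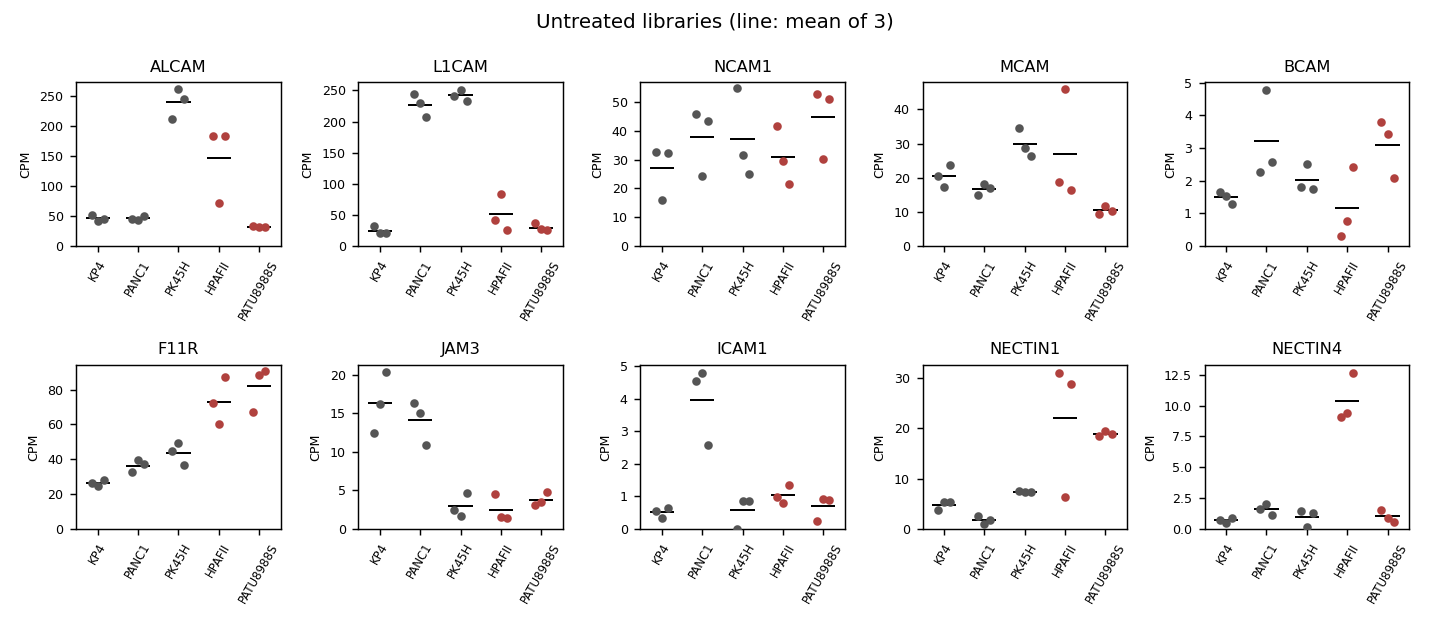
Levels in CPM (vertical axes, linear from 0, scaled per gene) of the 10 adhesion genes in the 15 untreated libraries; points are libraries, lines the mean of 3, with HPAFII and PATU8988S in red and the other lines in grey. F11R lies at 60.2 to 90.8 CPM in the red lines against 24.4 to 49.6 CPM in the grey ones, while ALCAM lies at 42.3 to 51.3 CPM in KP4 and 212 to 261 CPM in PK45H, both grey.

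Set beside each other, the difference between lines and the OVOL2 effect did not point the same way for all genes. F11R was higher in HPAFII and PATU8988S and rose with OVOL2, and JAM3 was lower there and fell. NECTIN1 was 2.41 higher in those lines but fell by 2.29 with OVOL2 and M2rtTA. L1CAM was 1.51 lower on the log2 scale there (−1.51) but rose by 0.48 with OVOL2 and M2rtTA. Without M2rtTA its mean change was 0.10 (adjusted p = 0.624). The L1CAM line difference came from PANC1 and PK45H, while KP4, the only line that passed with OVOL2, was already low. PK45H with OVOL2 and M2rtTA (mean 204 CPM) was above mCherry with M2rtTA (152 CPM) but below untreated PK45H (242 CPM). With OVOL2 and M2rtTA, F11R in PANC1 (75.1 to 87.2 CPM) overlapped with untreated HPAFII (60.2 to 87.3 CPM) and PATU8988S (66.9 to 90.8 CPM), PK45H (91.6 to 121 CPM) was above both, and KP4 (46.6 to 60.7 CPM) reached only the lowest HPAFII library. With OVOL2 alone, KP4 (68.6 to 76.9 CPM) and PANC1 (80.7 to 88.3 CPM) overlapped with both lines and PK45H (108 to 119 CPM) was above them.

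**Figure D5:**
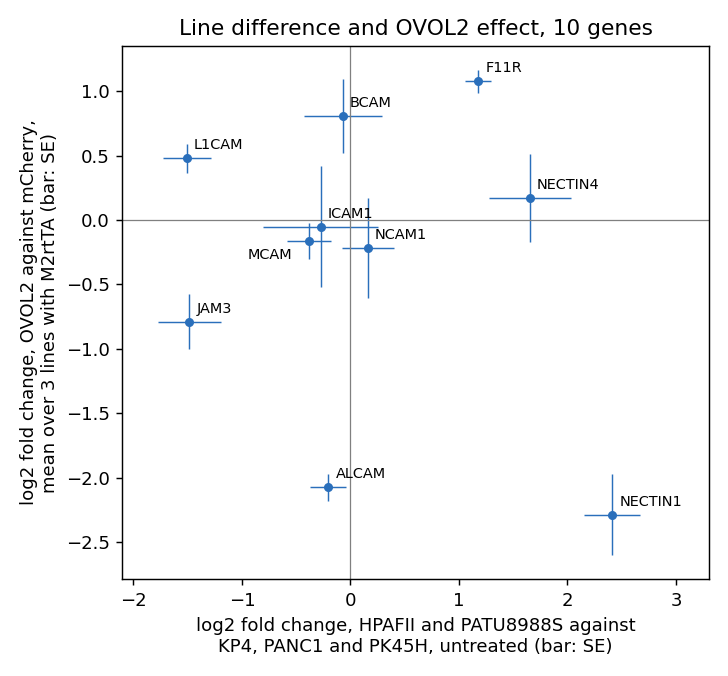
Log2 fold change of untreated HPAFII and PATU8988S against KP4, PANC1 and PK45H (horizontal axis) and mean log2 fold change of OVOL2 against mCherry over 3 lines with M2rtTA (vertical axis) for the 10 genes; bars are SEs and the grey lines mark 0. F11R (1.18, 1.08) and JAM3 (−1.48, −0.79) have the same sign on both axes, and NECTIN1 (2.41, −2.29) and L1CAM (−1.51, 0.48) have opposite signs.

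The surroundings of the 10 genes were taken from 4 lists of related genes. Of 46 other immunoglobulin-type adhesion genes, 33 were tested in the mean OVOL2 effect with M2rtTA, and 5 rose and 4 fell (9 of 33, where 32.9% of all genes passed; median 0.05, against 0.03 over all genes). The rises with the smallest p were BSG (basigin; 0.32, adjusted p = 0.000218), ESAM (a junctional molecule first known from endothelium; 1.54, adjusted p = 0.000233) and IGSF8 (a tetraspanin partner; 0.84, adjusted p = 0.000389). The falls with the smallest p were SIRPA (the receptor of CD47; −1.44, adjusted p = 8.71e-08), CD276 (B7-H3; −0.58, adjusted p = 0.00212) and VSIG10 (−1.37, adjusted p = 0.0134). Without M2rtTA, 5 rose and 2 fell (18.1% of all genes passed), and ESAM (1.00), IGSF8 (0.65) and SIRPA (−1.03) were among them.

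The cytoplasmic partners, which link these molecules to actin and spectrin, were all 18 tested, and 3 rose and 4 fell with M2rtTA (32.9% of all genes passed; median −0.06). CTNND1 (p120 catenin; 0.37, adjusted p = 0.00011), EZR (ezrin, a known link between L1CAM or ALCAM and the cortex; 0.28, adjusted p = 0.00928) and TJP1 (the tight-junction scaffold that binds F11R; 0.35, adjusted p = 0.0422) rose. ACTN1 (actinin; −0.89, adjusted p = 2.95e-11), RDX (radixin; −0.49, adjusted p = 0.00108) and MSN (moesin; −0.57, adjusted p = 0.00191) fell, so that the 3 related linkers ezrin, radixin and moesin did not share a direction. Without M2rtTA, 4 rose and 3 fell (18.1% of all genes passed), EZR and MSN with the same signs (0.39 and −0.65). Of 8 genes of the shedding proteases and their regulators, 7 were tested, and 2 rose and 1 fell with M2rtTA (32.9% of all genes passed; median 0.10). ADAM10, a sheddase of L1CAM, rose by 1.78 (adjusted p = 0.0133), while ADAM9 fell (−0.50, adjusted p = 0.000158). The genes of the 4 lists were not followed through the fits that left out a library. How far their calls rest on single libraries is therefore not known. ADAM17, a protease that sheds ALCAM, did not pass in either arm (0.80, adjusted p = 0.131, and 0.10, adjusted p = 0.868).

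Of 16 extracellular partners, 11 were tested, and 1 rose and 3 fell with M2rtTA (4 of 11, where 32.9% of all genes passed; median −0.18). LGALS3, a lectin, rose by 0.82 (adjusted p = 3.8e-05). FGFR1, a receptor that NCAM1 and L1CAM can bind, fell (−0.57, adjusted p = 4.49e-07), as did MUC1, a ligand of ICAM1 (−1.04, adjusted p = 0.000513), and ITGAV, an integrin chain that binds L1CAM (−0.47, adjusted p = 0.0362). Without M2rtTA 2 passed (18.1% of all genes did), both lower: FGFR1 (−0.62) and the lectin LGALS1 (−0.73). Untreated HPAFII and PATU8988S had MUC1 4.32 above the other lines (adjusted p = 4.16e-10), which is the sign pattern seen for NECTIN1.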

How the data were processed

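PLATE-seq libraries of 51 samples in 17 groups were analysed. The values deposited by the authors are whole-number counts for each gene symbol, with no scaling applied. Per the submitters' processing notes, kallisto 0.44.0 and GRCh38 were used; their roles, the annotation release, strand use and handling of molecular identifiers are not given in the sources used here. Counts may include amplification copies.

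Columns were matched to samples by the labels' descriptions, and groups come from titles and treatment labels. The quasi-likelihood test of edgeR 4.0.16 (R 4.3.3) was run after TMM scaling and a filterByExpr filter that used the groups. Each transduced line had a fit of its 15 libraries, the means over lines came from 45 libraries, and the untreated lines from 15. Benjamini-Hochberg adjustment ran over all genes tested, with a threshold of 0.05. The SE of a log2 fold change was derived from the test statistic. Levels are CPM computed with TMM factors over all libraries. A floor of 3 counts was used for low values, and counting error is the only error it covers. Library totals of 1165399 to 7490556 counts limit genes of a few CPM.

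The 10 genes, the 4 lists and the tests were chosen with earlier results of these data known. All 10 genes are named whatever their values; each list contributes, for the mean effect with M2rtTA, up to 3 rising and 3 falling genes of lowest p among those past the threshold, and others named beside them were picked after their values were seen. Some genes that these rules give are not reported here. The fit was tested on data simulated for the OVOL2 comparison in KP4 with M2rtTA. It recovered 25 of 100 true log2 changes of size 1 and 78 of 100 of size 2, with 4 false calls. The simulation tested 13434 genes and changed only 100 of each size, while 22.4% of all genes passed in the real comparison. Recovery in the real comparison can therefore differ from these rates. A change that did not pass can still be real. Alternatives were DESeq2 1.42.0, RLE scaling, leaving the filter out, requiring a mean count of 10, robust dispersion, replicate number as a block, thinning to the smallest total, a fit of only the groups compared, 1 fit of all libraries, and leaving out each library in turn. Promoter windows are from RefSeq (GRCh38.p14) and positions from GENCODE 29.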

Additional observations from a re-analysis of the deposited data

Results flagged for a closer look

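The OVOL2 effects without M2rtTA differed between KP4, PANC1 and PK45H for L1CAM (adjusted p = 0.0381), with changes of 0.65, 0.14 and −0.55 in that order, and for NCAM1 (adjusted p = 0.0472), with changes of 2.61, −1.07 and −0.36. Without KP4 OVOL2 replicate 3 the values were 0.0389 for L1CAM and 0.618 for NCAM1.

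The OVOL2 effect on JAM3 in KP4 differed between the arms (adjusted p = 0.0464), at −1.77 without M2rtTA and −0.48 with it. The JAM3 levels with OVOL2 were 3.36 to 4.76 CPM and 8.72 to 10.2 CPM, and with mCherry 12.1 to 15.3 CPM and 12.6 to 14.8 CPM.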

How the results depend on the processing

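Of 849 values of single genes recomputed under 9 settings other than leaving out a library, 804 kept their direction and their side of the threshold, or moved by less than the spread between replicates. Changes of sign occurred in 4, all in changes that had not passed: after thinning to the smallest total, MCAM in KP4 without M2rtTA came to −0.17 and L1CAM in the mean without M2rtTA to −0.0054, and with the replicate number as a block, NECTIN1 in PANC1 without M2rtTA came to 0.018 and ICAM1 in the mean with M2rtTA to 0.068. Replicate numbers did not pair the samples (correlations of −0.128 to 0.152 over 36 pairs); the block ended the calls of NECTIN1 in KP4 (adjusted p = 0.0711) and PK45H (0.0702) without M2rtTA and of L1CAM in KP4 with it (0.0557). The number of genes called with the block was 2 in KP4 in each arm, 1 in PK45H without M2rtTA, 0 for the difference between lines without M2rtTA and 0 for the change by M2rtTA in KP4. Thinning gave 1 gene in PK45H without M2rtTA, 1 in PK45H with it, 1 in PANC1 with it, 3 in the mean with it, 0 for the difference between lines without M2rtTA and 0 for the change by M2rtTA in KP4. Fitting only the groups compared gave 1 in PK45H in each arm and 0 for mCherry in PANC1. For the change by M2rtTA, no filter gave 0 in KP4, and RLE scaling, a mean count of 10, DESeq2 and robust dispersion gave 1 in PK45H. DESeq2 also gave 1 for M2rtTA without OVOL2 in PK45H, and robust dispersion and the fit of all libraries gave 1 for the difference between lines without M2rtTA. Thinning was a single random draw, which adds noise of its own, and the causes of these changes were not tested.

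Leaving out 1 library gave 1 to 2 genes in PK45H without M2rtTA, 1 to 3 with it, 0 to 2 for the difference between lines without M2rtTA, 0 to 1 for mCherry in PANC1, and 0 in KP4 and 0 to 1 in PK45H for the change by M2rtTA. Of 1278 values of single genes, 1166 kept their call, and the 31 that changed sign belonged to changes that had not passed. Without M2rtTA these ranged from −0.052 to 0.18 (MCAM, KP4), −0.26 to 0.17 (NECTIN1, PANC1), and in the mean from −0.36 to 0.88 (NCAM1), −0.18 to 0.017 (MCAM) and −0.16 to 0.76 (ICAM1). With M2rtTA they ranged from −0.80 to 0.30 (NCAM1, KP4), −0.32 to 0.024 (MCAM, PANC1), −0.056 to 0.81 (BCAM, PANC1), −0.81 to 0.16 (JAM3, PK45H), and in the mean from −0.24 to 0.57 (ICAM1) and −0.23 to 0.36 (NECTIN4). ALCAM ranged from −0.015 to 0.13 for mCherry in KP4 and from −0.00032 to 0.054 for M2rtTA in PK45H, and BCAM from −0.78 to 0.18 between untreated lines. Over all genes, thinning lowered the calls from 4923 to 3207 in the mean with M2rtTA and from 2708 to 1540 without it. Depth limits NECTIN4, BCAM and ICAM1, NECTIN1 in the transduced lines, and JAM3 in PK45H, which had few counts per library.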
